A study of Caenorhabditis elegans with 12 samples.

Results

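The sites described here are N2-leaning MRG-1 sites, places in the genome where MRG-1 was called in every wild-type sample and in some, but not all, samples of animals without a germline. MRG-1 chromatin immunoprecipitation followed by sequencing (ChIP-seq) was performed on whole worms at the L4 larval stage, with 3 samples of N2, the wild-type strain, and 3 of SS104 *glp-4(bn2)*, a temperature-sensitive mutant that fails to form a germline at the restrictive temperature. Both strains were kept at 15° according to the labels, were grown from synchronized L1 larvae at 25°, and were precipitated with the same MRG-1 antibody. The 6 lists of peaks were merged into sites wherever peaks overlapped by at least 1 bp, and a sample was taken to call a site that held one of its peaks. N2-leaning sites were selected on these calls alone: a call in all 3 N2 samples and in 1 or 2 *glp-4(bn2)* samples, on chromosomes II, III, IV, V or X. There were 388 such sites among the 6369 sites of these chromosomes and the 8226 sites of the whole series, 162 with 1 *glp-4(bn2)* call and 226 with 2. They made up 10.9% of the 3576 sites called in all 3 N2 samples; of the others, 460 had no *glp-4(bn2)* call and 2728 had all 3. Since the calls chose the sites, the folds, ranks and widths below describe them and were not tested between the strains.

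MRG-1 is the worm ortholog of mammalian MRG15, a chromodomain protein that reads methylated lysine 36 of histone H3, a mark deposited over the bodies of transcribed genes. In the worm germline this mark is maintained by MES-4 on genes of the autosomes, while the X chromosome is largely silent in germ cells. MRG-1 is present in the germline and in somatic tissues such as neurons and intestine. A whole-worm N2 sample therefore mixes both kinds of chromatin, and a *glp-4(bn2)* sample holds somatic chromatin. With whole worms, fewer cells that carry MRG-1 at a site and less MRG-1 per cell cannot be told apart.

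The lists were of like length, with between 7073 and 7737 peaks for N2 and between 7303 and 7584 for *glp-4(bn2)*, and differed more in the bases they covered. On the 5 chromosomes, peaks covered 12.1, 13.1 and 11.6 Mb in N2 replicates 1, 2 and 3. The *glp-4(bn2)* peaks, in the same order, covered 10.8, 12.0 and 10.4 Mb. Within each strain the replicate numbered 2 had the fewest peaks, the widest peaks and the most bases called. The depth in reads is unknown from these lists. The background level at which most peaks of a list were called could be recovered from its p-values, and was 96.8, 88.9 and 77.2 extended reads per base in the N2 lists and 68.9, 60.6 and 68.9 in the *glp-4(bn2)* lists. The lowest fold called at these levels was 1.31, 1.32 and 1.34 in N2 and 1.36, 1.37 and 1.36 in *glp-4(bn2)*, where fold is the enrichment over the local background that the authors' peak caller gave. At 385 of the 388 N2-leaning sites every N2 fold was above 1.37, the highest of the *glp-4(bn2)* limits. The limits of the N2 lists lay only slightly lower, so this count was largely fixed by the calling. The part of the limits in the missing calls was not tested.

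The *glp-4(bn2)* replicates took unequal parts in the calls. Replicate 2 called 334 of the 388 sites (86.1%, 95% Wilson interval 82.3% to 89.2%, for counting error only), replicate 1 called 192 (49.5%, 44.5% to 54.4%) and replicate 3 called 88 (22.7%, 18.8% to 27.1%). Among the 162 sites with 1 call, the caller was replicate 2 at 119 sites, replicate 1 at 31 and replicate 3 at 12. Among the 226 sites with 2 calls, the missing sample was replicate 3 at 150 sites, replicate 1 at 65 and replicate 2 at 11. The order of the replicates was thus the same in both classes, and replicates 1 and 2 together made the most frequent pair of callers (66.4% of the sites with 2 calls). This order follows the number of bases called by each list and not its number of peaks, since replicate 3 had the most peaks and the fewest bases. The part of these differences between lists in the missing calls was not tested. With windows around summits in place of whole peaks the replicates were much less unequal: the shares of N2-leaning sites missed by replicates 1, 2 and 3 were then 46.1%, 37.9% and 54.6%, compared with 50.5%, 13.9% and 77.3% for whole peaks.

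**Figure D1:**
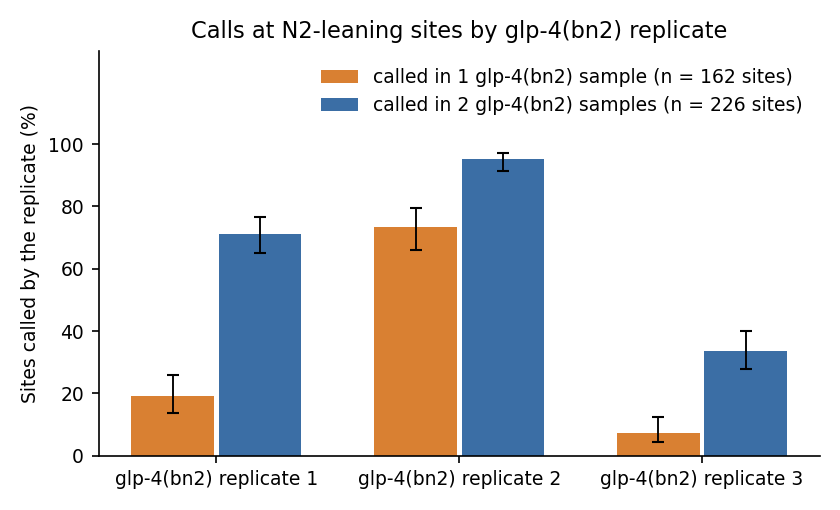
Share of N2-leaning sites (%) that each *glp-4(bn2)* replicate called, for sites with 1 call (orange, 162 sites) and with 2 calls (blue, 226 sites); bars start at 0 and error bars are 95% Wilson intervals for counting error. Replicate 2 called 73.5% and 95.1% of the sites, and replicate 3 only 7.41% and 33.6%, for sites made from whole peaks.

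N2-leaning sites were weak sites in every list that called them. To compare lists, each site was given the percentile of its highest fold among all peaks of the same list. At sites with 2 *glp-4(bn2)* calls the median fold was 1.98, 2.15 and 1.95 in N2 replicates 1, 2 and 3, at median percentiles of 36.3, 43.9 and 33.7. The *glp-4(bn2)* samples that called these sites placed them lower, with median folds of 1.78, 1.89 and 1.71 at percentiles of 24.2, 30.4 and 18.9 in replicates 1, 2 and 3. Sites with 1 call had median N2 folds of 1.90, 2.00 and 1.89 at percentiles of 32.2, 37.4 and 30.1. In the *glp-4(bn2)* sample that called them, their median folds were 1.66, 1.75 and 1.70 at percentiles of 14.7, 20.7 and 18.6. All 6 medians of both classes lay below the middle of their list, and the *glp-4(bn2)* medians lay below the N2 medians in both classes.

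The calls themselves were seldom marginal by the q-value of the peak caller. A q-value above 0.001 was given to 4.79% of the replicate 2 calls at these sites, 2.08% of the replicate 1 calls and 3.41% of the replicate 3 calls, against 2.81%, 1.73% and 2.14% of all peaks in these lists. In N2 at most 4 of the 388 sites had such a q-value in any one sample. A fold of 2 or more was seen in 22.8% of the *glp-4(bn2)* calls at sites with 2 calls and in 10.5% of those at sites with 1 call, and the highest reached 2.86.

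The classes on either side of the rule were placed as follows. Sites with all 3 *glp-4(bn2)* calls had median N2 percentiles of 73.7, 73.4 and 72.6 in replicates 1, 2 and 3, far above the N2-leaning sites. Sites with no *glp-4(bn2)* call had medians of 31.6, 40.5 and 29.4, close to those of sites with 1 call. The median N2 rank was higher with 2 *glp-4(bn2)* calls than with 1 and highest with 3. Sites without a call spread more widely, with 80% of them between percentiles 8.86 and 61.6 in N2 replicate 1, compared with 12.0 and 52.0 for sites with 1 call. By N2 rank, N2-leaning sites were most frequent among sites with a mean N2 percentile between 20 and 40, where 100 of 647 sites (15.5%) had 1 *glp-4(bn2)* call and 113 (17.5%) had 2. None of the 1060 sites above percentile 80 was N2-leaning, and all of these had 3 *glp-4(bn2)* calls.

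**Figure D2:**
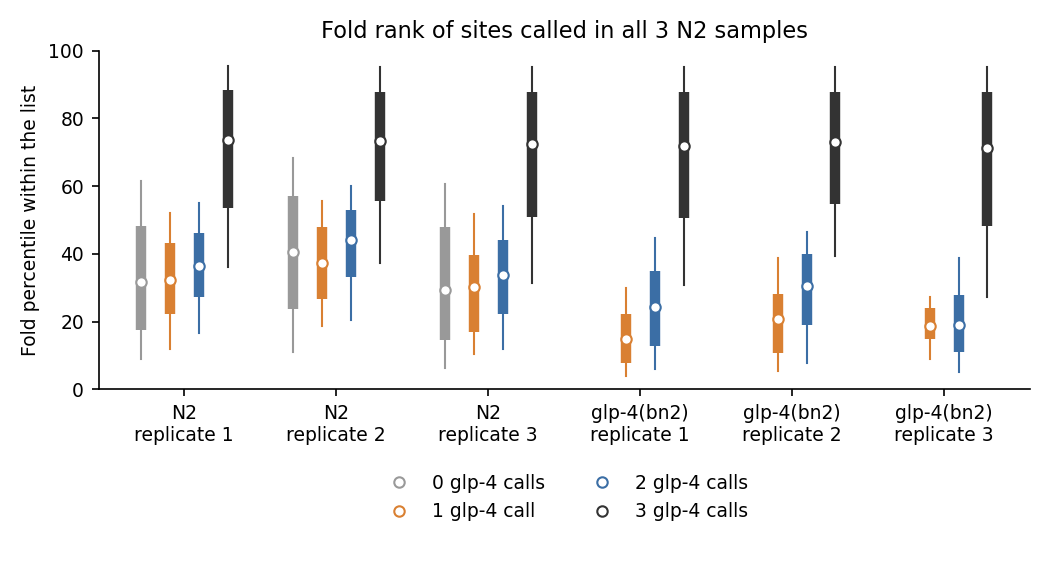
Percentile of a site's fold within each of the 6 lists, for sites called in all 3 N2 samples, by the number of *glp-4(bn2)* calls; circles are medians, thick bars the middle 50% of sites and thin lines the middle 80%, over the sites called by that sample. N2-leaning sites (1 call in orange, 2 calls in blue) had medians between 30.1 and 43.9 for N2 and between 14.7 and 30.4 for the mutant, below the 71.3 to 73.7 of sites called in all 6 samples (black).

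Site by site, the N2 rank was mostly the higher one. The mean percentile over the 3 N2 samples exceeded the mean over the calling *glp-4(bn2)* samples at 310 of 388 sites (79.9%), with a mean difference over all sites of 12.3 percentile points (SD over sites 15.7). With windows around summits the mean difference was 6.05 points. The mean difference was 13.6 points (SD 18.0, 162 sites) with 1 call and 11.3 points (SD 13.8, 226 sites) with 2 calls. By *glp-4(bn2)* sample it was 13.9 points for replicate 1, 9.43 for replicate 2 and 17.0 for replicate 3, so it was positive in all 3 and smallest in the replicate that called most of the sites. Sites called in all 6 samples differed by 1.05 points on average, and the N2 rank was the higher one at 1612 of these 2728 sites (59.1%). With the strains exchanged in the rule, sites called in all 3 *glp-4(bn2)* and in 1 or 2 N2 samples differed by -23.5 points on average. There the *glp-4(bn2)* rank was the higher one at 263 of 299 sites, so the rule bears on the direction of the difference. A stricter view asks for every N2 percentile of a site to lie above every *glp-4(bn2)* percentile. This held at 166 N2-leaning sites (42.8%), against 27.6% of the 3116 sites called in all 3 N2 and at least 1 *glp-4(bn2)* sample. The rule itself bears on both of these shares, since it asks for missing *glp-4(bn2)* calls, and with 1 call there are fewer values to lie below. The reverse, every *glp-4(bn2)* percentile above every N2 percentile, was found at 16 sites (4.12%), 14 of them with 1 call. It was found at 481 of the 2728 sites called in all 6 samples (17.6%).

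The N2 samples were not uniform at these sites either. The range of the 3 N2 percentiles of a site had a median of 18.7 points, larger than the mean difference between the strains. It was similar, 18.0 points, at sites without a *glp-4(bn2)* call, and was 5.99 points at sites called in all 6 samples. N2 replicate 2 gave the highest of the 3 percentiles at 222 of the 388 sites. It did so at 278 of the 460 sites without a *glp-4(bn2)* call and at 1184 of the 2728 called in all 6 samples. At sites with 2 *glp-4(bn2)* calls the 2 percentiles in the mutant were 11.9 points apart in the median.

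**Figure D3:**
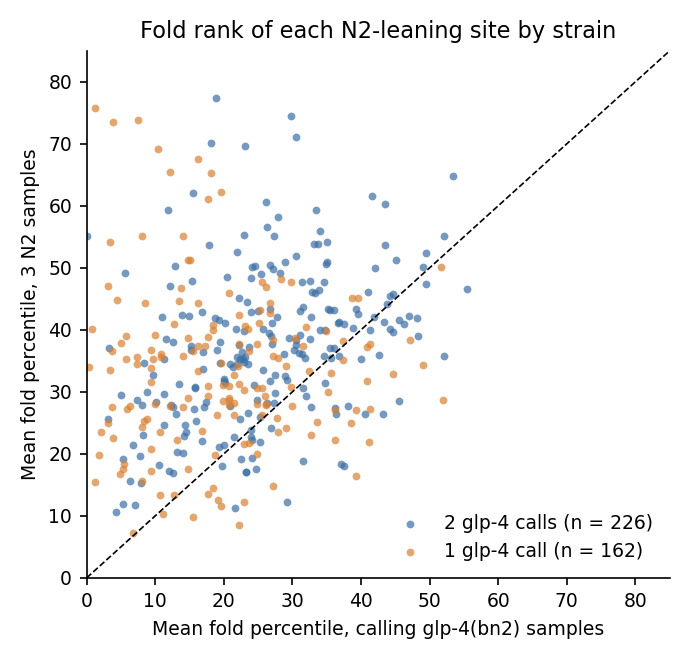
Mean fold percentile in the 3 N2 samples against the mean over the *glp-4(bn2)* samples that called the site, 1 point per N2-leaning site (1 call in orange, 162 sites; 2 calls in blue, 226 sites); the dashed line marks equal percentiles. Above the line lie 310 sites and below it 78, and no site reached a mean percentile of 80 in N2. Among sites called in all 6 samples, which are not shown, N2 ranked higher at 59.1%.

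The N2-leaning sites with 2 calls that ranked highest in their weakest N2 sample were strong in N2 and weak in the mutant. Positions are those of ce10 and are counted from 1. A site on chromosome V from 20179495 to 20180982 had folds of 3.99, 4.48 and 3.56 in N2 replicates 1, 2 and 3. In *glp-4(bn2)* its folds were 1.94 in replicate 1 and 1.39 in replicate 2, and the nearest replicate 3 peak was 18099 bp away. All 3 N2 values were thus well above both mutant values, and the percentiles ran from 74.7 to 79.9 in N2 and were 36.6 and 1.12 in the mutant. A site on chromosome III from 6504354 to 6505412 had N2 folds of 4.23, 3.48 and 3.31, with 1.75 in *glp-4(bn2)* replicate 1 and 1.97 in replicate 3. Here replicate 2, which called most of the N2-leaning sites, was the one without a call, and its nearest peak lay 12671 bp away. A site on chromosome II from 14320572 to 14321229 had N2 folds of 3.54, 2.83 and 3.82. Its mutant folds were 1.94 (replicate 2) and 1.83 (replicate 3), with the nearest replicate 1 peak at 19319 bp. These 3 sites were far from any peak of the sample that missed them.

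The other 2 of the 5 were broader in N2 than in the mutant. On chromosome V, from 11554554 to 11557963, the N2 folds were 3.14, 3.24 and 3.20, and the *glp-4(bn2)* folds 1.73 in replicate 2 and 1.82 in replicate 3. The N2 samples called 3312, 3410 and 3257 bp there, and *glp-4(bn2)* replicates 2 and 3 called 953 and 1892 bp. With windows around summits this site had no *glp-4(bn2)* call. On chromosome IV, from 7957510 to 7962044, lay the widest site with 2 calls, at 4535 bp. N2 replicates 1, 2 and 3 called 3779, 4535 and 3121 bp of it with folds of 2.99, 4.41 and 2.82. The *glp-4(bn2)* peaks there covered 578 bp in replicate 1 and 584 bp in replicate 2, with folds of 1.68 and 1.74, so the call in the mutant rested on a small part of the N2 domain. The largest gaps in rank among sites with 2 calls also included chromosome V from 11284329 to 11285955. Its N2 folds were 2.50, 2.56 and 2.40, near the middle of each list, while *glp-4(bn2)* replicates 2 and 3 gave 1.27 and 1.29 at q-values of 0.0356 and 0.0175. These were among the weakest peaks of their lists, at percentiles 0.0479 and 0.152, and neither was kept at a q-value of at most 0.001.

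Some sites with 2 calls went the other way. On chromosome II, from 649419 to 650311, the percentiles were 6.95, 31.3 and 15.8 in N2. Mutant replicates 1 and 2 ranked it at percentiles 28.9 and 46.1, and the nearest replicate 3 peak lay 29552 bp away. On chromosome V, from 16786033 to 16787087, the N2 folds of 1.64, 1.48 and 1.96 met a fold of 2.37 in *glp-4(bn2)* replicate 2 and of 1.75 in replicate 3. On chromosome II, from 13681721 to 13682674, the N2 folds were 1.71, 2.37 and 1.65, and *glp-4(bn2)* replicates 1 and 2 gave 2.15 and 2.14. The values of the strains overlapped at all 3 of these sites, which the rule selected by the missing call. The first and the second no longer had all 3 N2 calls at a fold of at least 1.5.

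Among sites with 1 call, the highest ranks in N2 were of the same size. The site on chromosome III from 7601302 to 7602415 had folds of 4.07, 3.28 and 4.24 in N2 replicates 1, 2 and 3. Only *glp-4(bn2)* replicate 1 called it, with a fold of 1.41 at percentile 1.16, and the nearest peaks of replicates 2 and 3 were 11421 and 13520 bp away. It had the largest rank difference of all N2-leaning sites, 74.6 points. That difference rests on a weak call with a q-value of 0.000571, which was lost at a q-value of at most 1e-05, at a fold of at least 1.5 and with equal numbers of top peaks. The site on chromosome V from 10811775 to 10813617 had N2 folds of 3.30, 4.00 and 3.37, at percentiles from 71.1 to 76.7, and ranked at percentile 3.90 in *glp-4(bn2)* replicate 1, a call lost under the same 3 alternatives. It lay 125 bp from a site called in all 6 samples, and replicates 2 and 3, which missed it, had peaks at 240 and 281 bp. The first of these sites thus lay far from the peaks of the samples that missed it, and the second close to them.

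The remaining sites with 1 call and a high N2 rank were similar. On chromosome II, from 3931353 to 3933851, the N2 folds were 3.05, 4.66 and 3.38, and *glp-4(bn2)* replicate 2 gave 1.58. On chromosome II, from 7880757 to 7882674, the N2 folds were 2.97, 2.98 and 2.84, and *glp-4(bn2)* replicate 2 gave 1.64 over 301 bp. On chromosome III, from 5604343 to 5607908, the N2 folds were 2.84, 3.06 and 2.89, and *glp-4(bn2)* replicate 3 gave 1.69. The *glp-4(bn2)* calls of both chromosome II sites were lost with the q-value limit of 1e-05, and that of the chromosome III site with windows around summits. Each of these 3 had a site called in all 6 samples as its nearest neighbour. The widest N2-leaning site, 5699 bp on chromosome V from 14698651 to 14704349, ranked at percentiles 49.7, 67.1 and 45.7 in N2 replicates 1, 2 and 3, over 4943, 5699 and 4224 bp. Its single *glp-4(bn2)* peak, in replicate 1, covered 622 bp at percentile 3.37, and was lost with the q-value limit of 1e-05, at a fold of at least 1.5, among the top 7073 peaks of every list and with windows around summits.

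At the other end, 3 narrow calls of *glp-4(bn2)* replicate 2 ranked above N2. On chromosome III, from 3290130 to 3290599, N2 folds of 1.76, 2.06 and 1.77 stood beside 2.37 in replicate 2. On chromosome III, from 12741774 to 12742229, N2 percentiles of 18.6, 26.1 and 4.46 stood beside 39.2. On chromosome IV, from 1948665 to 1950163, N2 folds of 1.84, 1.68 and 1.72 stood beside 2.09. At each of them the mutant value was above all 3 N2 values, and each fold is relative to the background of its own list.

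N2-leaning sites were narrow. The median width was 819.5 bp with 1 call and 847 bp with 2 calls, and 245 of 388 sites (63.1%, interval 58.2% to 67.8%) were under 1000 bp. Sites on both sides of the rule were wider, with medians of 1109.5 bp without a *glp-4(bn2)* call and 3089 bp with all 3. Under 1000 bp were 44.8% (40.3% to 49.4%) of the former and 10.3% (9.25% to 11.5%) of the latter. A merged site spans the peaks of all samples that called it, so its width also depends on the number of calls. The bases called per N2 sample showed the same order. At N2-leaning sites they had medians of 571, 733 and 533.5 bp in N2 replicates 1, 2 and 3, compared with 795, 1009 and 696 bp at sites without a *glp-4(bn2)* call and 2535.5, 2709.5 and 2370 bp at sites called in all 6 samples. Where N2 samples called under 500 bp on average, 20.7% of sites had 1 *glp-4(bn2)* call and 21.8% had 2. Where they called 2000 bp or more, the shares were 0.297% and 0.595%, and 95.5% of sites had all 3 calls.

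**Figure D4:**
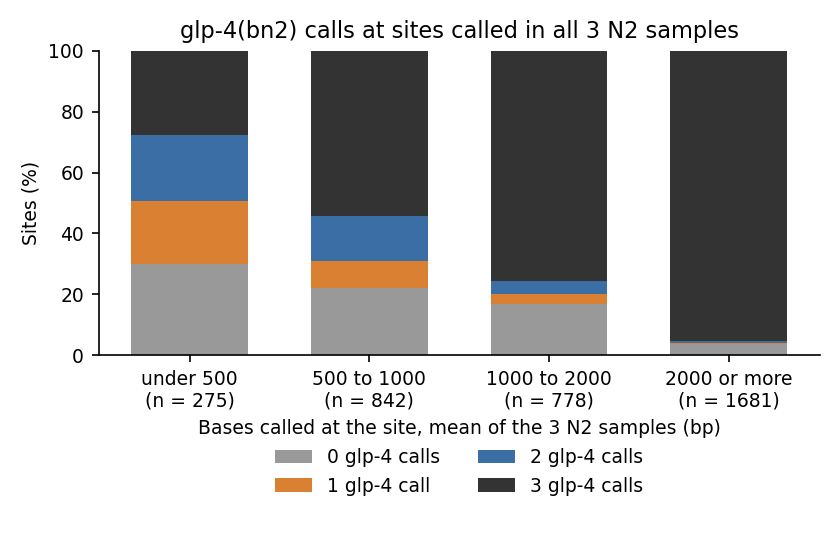
Sites called in all 3 N2 samples, grouped by the bases called per N2 sample, with the share (%) that had 0, 1, 2 or 3 *glp-4(bn2)* calls; each bar sums to all sites of its group. Sites with 1 call (orange) and 2 calls (blue) made up 20.7% and 21.8% of sites under 500 bp, and 0.297% and 0.595% of sites of 2000 bp or more.

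The *glp-4(bn2)* peaks mostly lay on the bases that the N2 samples had in common. Merging by overlap joins a mutant peak to an N2 peak almost by construction. It does not ask for an overlap with all 3 N2 samples at once, but narrow sites leave little room to miss it. The overlap was not computed for other classes of sites. Of the 614 *glp-4(bn2)* calls, 602 (98.0%) overlapped bases called in all 3 N2 samples. Bases common to the 3 N2 samples spanned 430 bp in the median, and a *glp-4(bn2)* peak covered 79.9% of them at sites with 1 call and 88.6% at sites with 2 calls. Summits lay 70 bp apart in the median between N2 and *glp-4(bn2)* samples at sites with 2 calls and 78.5 bp at sites with 1 call, against 59 and 60 bp between N2 samples. At sites called in all 6 samples the medians were 89 bp between the strains and 64.5 bp between N2 samples. The mutant peaks were shorter, with median called lengths of 414.5, 518.5 and 407 bp in replicates 1, 2 and 3. Most sites held a single peak per sample: several peaks of one sample were joined at 3.61% to 9.02% of the sites in N2.

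A sample that missed a site often had another peak close by. Over the 550 missing calls, the nearest peak of the sample that missed the site was 1276 bp away in the median, and 114 calls (20.7%) had one within 500 bp. At sites with no *glp-4(bn2)* call the median distance was 2776.5 bp, and 11.0% had one within 500 bp. More than 5000 bp separated 14.2% of the missing calls at N2-leaning sites from the nearest peak, and 36.2% at sites without a *glp-4(bn2)* call. By the replicate that missed the site, the medians were 1130.5, 1010.5 and 1368 bp for replicates 1, 2 and 3. The nearest other site was one called in all 6 samples for 183 of the 388 sites (47.2%), one called in N2 samples only for 92 (23.7%) and another N2-leaning site for 58 (14.9%). Over all 6369 sites the shares were 43.4%, 21.3% and 6.37%. Of the N2-leaning sites, 168 (43.3%) had another within 10000 bp, centre to centre. No such share was computed for other classes of sites. The nearest site of any class was 440.5 bp away in the median, against 463 bp over all 6369 sites. The densest window of 500 kb was on chromosome IV from 1500001 to 2000000, where 17 of the 47 sites called in all 3 N2 samples (36.2%) were N2-leaning. On chromosome III the densest was from 11000001 to 11500000, with 14 of 44 sites. Both windows were picked for their counts.

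Nearly all N2-leaning sites lay on autosomes. Chromosome III held 122 of them, IV 106, V 82, II 75 and X 3. Relative to the sites called in all 3 N2 samples on each chromosome, the share was 12.4% on III, 12.6% on IV, 12.0% on V and 9.62% on II, and 1.04% on X (3 of 289). By class, X held 1 of 162 sites with 1 call and 2 of 226 with 2 calls. The X share of all N2-leaning sites was 0.773% (interval 0.263% to 2.25%), compared with 10.2% (9.15% to 11.4%) of the sites called in all 6 samples and 1.52% (0.739% to 3.11%) of those with no *glp-4(bn2)* call. Sites of like N2 rank were then compared. Between N2 percentiles 27.2 and 42.9, which held the middle 50% of N2-leaning sites, 82 of 518 sites on chromosomes II to V (15.8%) had 1 *glp-4(bn2)* call and 110 (21.2%) had 2, while of 67 sites on X 1 had 1 call and 1 had 2. In that band 92.5% of the X sites were called by all 3 *glp-4(bn2)* samples, compared with 38.8% of the autosomal sites. Those X sites were also wider, with a median of 2490.5 bp against 1139 bp for the autosomal sites with all 3 calls, and the part of width in the X share was not tested. The X share depended on how peaks were joined: when windows reaching 250 bp to either side of each summit took the place of peaks, 62 of 757 N2-leaning windows (8.19%) lay on X, against 10.3% of the windows called in all 6 samples. Without N2 replicate 2 it was 2.41%.

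The 3 X sites were named after their values were seen. From 199036 to 199410, the narrowest N2-leaning site had N2 folds of 2.00, 1.71 and 1.95 and a fold of 1.81 in *glp-4(bn2)* replicate 2, within the N2 range. From 14308671 to 14309501, the N2 folds were 1.69, 1.61 and 1.75, and *glp-4(bn2)* replicates 2 and 3 gave 1.48 and 1.69. From 16929850 to 16931245, the N2 folds were 2.52, 1.55 and 2.26 and the *glp-4(bn2)* folds 1.65 and 1.80 in replicates 2 and 3. All 3 sites were missed by *glp-4(bn2)* replicate 1, and at each of them the folds of the strains overlapped.

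Along chromosomes II to V, N2-leaning sites lay mostly away from the middle. Worm autosomes have a central region and repeat-rich arms, which carry more heterochromatin. Each chromosome was divided into 3 equal parts between its first and last site. The central part held 62 of 385 N2-leaning sites (16.1%, interval 12.8% to 20.1%), with 16.1% in both classes. It held 34.1% (32.3% to 36.0%) of the sites called in all 6 samples and 32.7% (28.5% to 37.1%) of those without a *glp-4(bn2)* call. The share was lowest on chromosome IV, with 7 of 106 sites, and was 14.7% on II, 20.5% on III and 23.2% on V. The outer parts were unequal, with 132 sites on the left and 191 on the right. The position of sites varied with their width. Among sites under 1000 bp, the central part held 6.73% of sites with 1 call, 6.47% with 2 calls and 3.62% with all 3, and 24.3% of those without a call. Among sites of 1000 to 2000 bp it held 30.6%, 29.0% and 18.2% with 1, 2 and 3 calls, and 36.1% without a call. In both width classes the N2-leaning share thus lay between those of the neighbouring classes. At like N2 rank, between percentiles 27.2 and 42.9, it did not: the central part held 8.54% and 13.6% of sites with 1 and 2 calls, 17.9% with all 3 and 36.8% without a call. In each of these comparisons the sites without a *glp-4(bn2)* call were the most central.

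**Figure D5:**
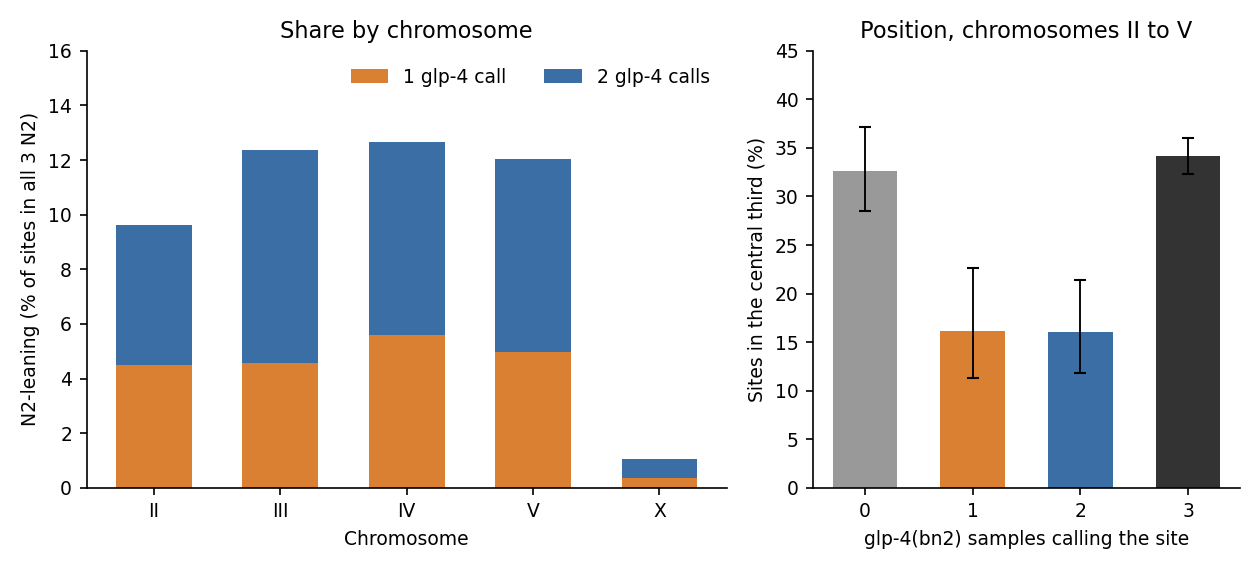
Left, N2-leaning sites as a share (%) of the sites called in all 3 N2 samples on each chromosome, stacked by 1 (orange) and 2 (blue) *glp-4(bn2)* calls; right, share (%) of sites on chromosomes II to V that lay in the central of 3 equal parts, by the number of *glp-4(bn2)* calls, with 95% Wilson intervals. N2-leaning sites made up 9.62% to 12.6% on the autosomes and 1.04% on X, and 16.1% of them were central, against 32.7% and 34.1% of the neighbouring classes. Shares are for sites made from whole peaks and not matched for width. With windows around summits, X held 8.19% of N2-leaning windows and 10.3% of those called in all 6 samples. Among sites under 1000 bp, 24.3%, 6.73%, 6.47% and 3.62% were central with 0, 1, 2 and 3 *glp-4(bn2)* calls.

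Call shares were also taken in samples left out of the choice of sites, with 1 N2 and 1 *glp-4(bn2)* sample held out at a time. Sites were selected on the other 4 by a call in both N2 samples and in 1 of 2 *glp-4(bn2)* samples. Over the 9 pairs this gave 258 to 382 sites. The held-out N2 sample called 87.6% of them on average, between 78.0% and 92.5%. The held-out *glp-4(bn2)* sample called 56.9% on average, with a much wider range of 30.2% to 84.6%. The N2 share was the higher one in 9 of 9 pairs, by 30.7 points on average. Exchanging the strains in the rule gave -31.9 points on average, with N2 higher in 0 of 9 pairs. The sign of the difference thus followed the rule that chose the sites. The part of the rule in its size was not tested. Most of the range of the *glp-4(bn2)* shares came from the sample held out: *glp-4(bn2)* replicate 3 called 30.2% to 36.3% of the sites, replicate 1 51.8% to 56.5% and replicate 2 82.5% to 84.6%. With replicate 2 held out, N2 was ahead by only 2.53 to 9.44 points. Sites called in both N2 and both *glp-4(bn2)* samples were called by the held-out N2 sample in 96.9% to 99.1% of cases and by the held-out mutant sample in 93.9% to 99.6%. The pairs share samples, so their range describes the spread and no test was made.

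With the strains exchanged in the rule, 299 sites were called in all 3 *glp-4(bn2)* and in 1 or 2 N2 samples, 8.87% of the 3371 sites called in all 3 *glp-4(bn2)* samples. Leaving out a sample changes the rule unequally on its sides, so these numbers cannot be ordered without all 6 samples. Without *glp-4(bn2)* replicate 1, 2 or 3 the numbers of N2-leaning and exchanged sites were 295 and 342, 267 and 350, and 226 and 410, where the rule then allows only 1 call on the N2-leaning side and still 1 or 2 on the other. Without N2 replicate 1, 2 or 3 the limit fell on the exchanged side, and the numbers were 433 and 229, 497 and 151, and 486 and 220. With windows around summits and all 6 samples, the numbers were 757 and 795, so the order was turned. The exchanged sites were wider, with a median of 1367 bp, lay on X in 113 cases (37.8%, interval 32.5% to 43.4%), and lay in the central part of chromosomes II to V in 34.4% of cases. For held-out pairs, sites were chosen anew on the other 4 samples by a call in both *glp-4(bn2)* and in 1 of 2 N2 samples. Of these 174 to 315 sites, the held-out N2 sample called the larger share in 0 of 9 pairs, with a mean difference of -31.9 points. Missing calls at the 299 exchanged sites were far from other peaks, with a median distance of 6224 bp to the nearest peak of the N2 sample that missed the site. The median was 1276 bp for the missing calls at N2-leaning sites.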

How the data were processed

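MRG-1 ChIP-seq was analysed from 6 peak lists, 1 per replicate of N2 and *glp-4(bn2)*; the 6 input samples were not analysed here. Per the study's methods and the submitters' processing notes, the authors aligned read pairs to the ce10 genome (Bowtie2 2.3.2). Each replicate's peaks came from MACS2 2.1.0 with a q-value limit of 0.05, no fragment model and an extension of reads to 300 bp. The control used in peak calling is not given in the sources used here. The deposited lists give per peak the fold enrichment, a ratio to the local background with a pseudocount of 1, the −log10 p-value, the −log10 q-value, an integer score made from the latter, and the summit. The lists were used as deposited.

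Peaks were merged over all samples and chromosomes, and chromosomes II, III, IV, V and X were kept; chromosome I was left out by the rule. The fold of a site in a sample is that of its highest peak, and its percentile is taken among all peaks of that list. The background level of a list was recovered as the Poisson mean that gave most p-values (−log10 up to 60, tolerance 1e-04), which 69.9% to 77.4% of them met. Merging, calls and level recovery were checked on simulated lists. The sites and the measures were chosen with earlier results of these data known. The sites named are, per class, the 5 with the highest lowest N2 percentile, the 3 with the largest rank difference in each direction and the widest; a site may fall under several of these, and the 3 X sites were added after their values were seen. Nothing in the labels says whether replicates came from separate cultures. Wilson intervals at 95% cover counting error over sites, which are not independent. Alternatives were stricter q-values (0.001, 1e-05), summit windows, overlaps of at least 150 bp, the top 7073 peaks of every list, a fold of at least 1.5, other rules on where a *glp-4(bn2)* peak must lie, and leaving out each sample; those for position and gaps were added afterwards. Genes at the sites were not assigned, because no annotation of ce10 was used here. Python 3.11.15, numpy 2.4.6, pandas 2.3.3, scipy 1.17.1 and matplotlib 3.10.9 were used.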

Additional observations from a re-analysis of the deposited data

How the results depend on the processing

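Of 105 values recomputed with all samples kept, 92 stayed within the 95% interval of a share, 1 SD between samples of a percentile, or a factor of 1.5 of a count, width or distance. Some of these values could hardly move. All 614 *glp-4(bn2)* calls at N2-leaning sites already lay on an N2 peak, so keeping only such calls left every value as it was. Neither rule on where a *glp-4(bn2)* peak must lie acts on the number of exchanged sites. Windows of 250 bp around summits, which split wide peaks and drop the overlap of their flanks, moved the most. They gave 757 N2-leaning sites (292 with 1 call, 465 with 2) and 795 sites under the exchanged rule, an X share of 8.19%, a median N2 percentile of 41.5, a rank difference of 6.05 points, 23.6% of sites in the central part (30.7% for windows called in all 6 samples), and missed shares of 37.9% for *glp-4(bn2)* replicate 2 and 54.6% for replicate 3. At a q-value of at most 1e-05 these shares were 20.8% and 70.8%. The central 2 of 4 equal parts held 27.3% of the autosomal sites. The rank difference stayed positive in all alternatives. Without 1 sample, N2-leaning sites numbered 226 to 497, those with 1 call 187 to 295 and those with 2 calls 246 to 292. The lowest total came without *glp-4(bn2)* replicate 3. Without a *glp-4(bn2)* sample, 1 call means 1 of 2 and covers every N2-leaning site. The range for 1 call thus mixes 2 rules, and that for 2 calls comes only from leaving out N2 samples. Exchanged sites numbered 151 to 410, lowest without N2 replicate 2. The X share was 0.339% to 2.41%, the central share 12.6% to 19.7%, the median N2 percentile 31.5 to 36.4, the rank difference 9.89 to 13.7 points, the median width 741 to 834.5 bp and the median gap 1096 to 1348 bp. The shares missed by *glp-4(bn2)* replicates 1, 2 and 3 ranged over 29.2% to 81.4%, 7.80% to 18.6% and 70.8% to 92.2%, and kept their order. With 2 *glp-4(bn2)* samples left, each site is missed by exactly 1 of them, so the shares are tied and their ranges do not measure stability. In held-out pairs N2 was ahead by 2.53 to 55.8 points, least with *glp-4(bn2)* replicate 2 held out. Of 168 recomputed values at the 21 named sites, 134 kept both the number of *glp-4(bn2)* calls and a call in all 3 N2 samples. The median distance to a peak cannot be read as absence of binding, since the lists hold no signal below the threshold. No paired analysis was possible because no result here comes from a test: the calls chose the sites, so calls and ranks alike are described without one.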
